A study of Sus scrofa with 12 samples.

Results

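Conjugating enzymes attach a polar group to steroids, drugs and reactive metabolites. Glutathione transferases (GST) and the membrane-bound MGST enzymes use glutathione, cytosolic sulfotransferases (SULT) use the sulfate donor PAPS, and UDP-glucuronosyltransferases (UGT) use UDP-glucuronate. Sulfation makes a steroid water-soluble and keeps it from its receptor, and steroid sulfatase (STS) reverses it. The boar testis is known for its large output of sulfated steroids, and both tissues are known to hold glutathione transferases.

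The set was taken by name from the gene table of a study of Banna mini-pig inbred line boars, and holds 21 of the 30640 gene rows. It has 8 GST rows, 3 MGST rows, 9 SULT rows and 1 UGT row. The row of SULT1C3 carries only an Ensembl identifier in the files and was named through a table of gene names. No row had the symbol STS or GSTP1. Of 15226 rows listed by identifier, 810 could be given a symbol. The rows of the set may therefore not be whole families, and family sums and rankings below hold for these rows alone. Another row, SULT1E1, also carries only an identifier. Its symbol matches the naming pattern, but the rule added the row of SULT1C3 alone. It is described beside the 21 because it is the estrogen sulfotransferase, and it is in none of their counts.

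The groups were 5 testis libraries and 5 epididymis libraries from untreated adult boars of 12 months per the labels. The file headers give ages of 11 to 17 months. By the headers, replicate 4 of both tissues came from the boar of 17 months, and the others from boars of 11 or 12 months. In replicate 4, age cannot be told apart from other traits of that boar or its libraries. The animal numbers in the headers recur in both tissues, so replicates 1 to 5 stand for 5 boars that gave both organs. The labels do not name a segment of the epididymis. The labels also speak of mixed samples of 5 testes and 5 epididymides and do not say whether that holds for these libraries. With 1 library per boar and tissue, p-values measure the spread between these libraries. RNA came from bulk tissue, so fewer cells of a type and less RNA per cell cannot be told apart in any result given here.

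Libraries held 18715154 to 30211957 counted reads in testis and 17980578 to 21937263 in epididymis. A count of 0 allows up to 3 reads, or 0.0993 to 0.167 reads per 1000000 reads of the library (CPM), counting error only. The tissues matched their labels. A list of 9 Leydig cell genes, the steroid-producing cells of the testis, with 8 in the files, summed to 14132 to 21734 CPM in testis and 28.2 to 35.5 CPM in epididymis. A list of 10 genes of the epididymal epithelium, with 9 in the files, summed to 1810 to 3012 CPM in testis, most of it CLU, and 22974 to 44832 CPM in epididymis. CRISP1 was at 0 reads in testis. Testis replicate 4 stood apart from the other testis libraries, with 70.6 CPM of small structural RNAs against 15041 to 16184, 76.4 CPM of histone genes against 2037 to 2922, and 16159 CPM of mitochondrial genes against 5238 to 8323. In the first and second of these it was like the epididymis libraries. Those held 71.7 to 132 CPM of small structural RNAs and 61.3 to 295 CPM of histone genes. Both contents thus differ with tissue in the other 4 testis libraries, where library preparation cannot be told apart from tissue. The part of these RNAs in the results was not tested beyond leaving their rows out before scaling. After that, 9 of the 21 enzymes were called for testis and 4 for epididymis, as with these rows in. Epididymis replicate 3 stood apart in marker genes, with 625 CPM of a list of 10 spermatid genes against 72.5 to 149 in the other epididymis libraries, and 34.8 CPM of 4 clear cell genes against 0.979 to 2.61.

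Of the 21 conjugating enzymes, 9 were higher in testis and 4 were higher in epididymis. Another 4 were not called, and 4 had too few reads to be tested. A call is an adjusted p under 0.05 in edgeR's quasi-likelihood test over all 17225 genes tested, of which 36.6% were called in the testis direction and 37.8% in the epididymis direction. The 9 of testis were SULT1C3, SULT2A1, SULT1C4, SULT4A1, GSTM3, GSTO1, GSTO2, GSTA1 and GSTT4. The 4 in epididymis were SULT2B1, SULT1A3, MGST3 and GSTZ1. All 9 were also called beyond 2-fold by glmTreat, where 27.3% of genes were, and so were SULT2B1 and SULT1A3, where 23.4% were. All testis values exceeded all epididymis values for the same 9 and were below them for the same 4, against 32.1% and 29.3% of the genes tested.

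**Figure D1:**
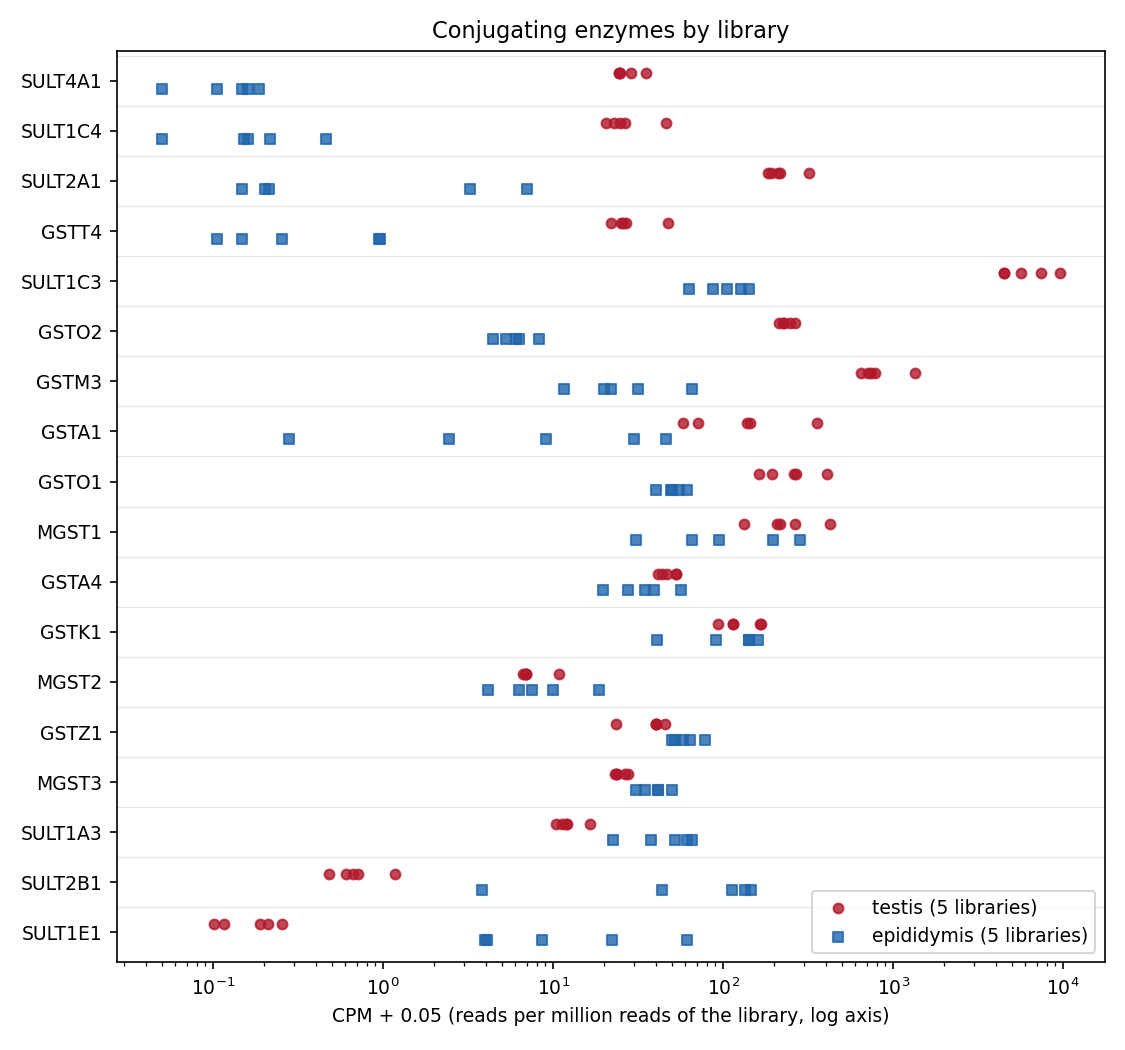
CPM of each tested conjugating enzyme and of SULT1E1 in each of the 10 libraries (log axis, 0.05 added so that 0 can be drawn), with circles for testis and squares for epididymis, ordered by the log2 fold change. SULT1C3 stands at 4474 to 9557 CPM in testis, and the tissues overlap for MGST1, GSTA4, GSTK1 and MGST2.

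SULT1C3, a member of the 1C group of cytosolic sulfotransferases, was the conjugating enzyme row with the highest CPM in testis. It had 4474, 9557, 5681, 7374 and 4489 CPM in testis replicates 1 to 5, against 86.8, 62.7, 106, 126 and 142 CPM in epididymis replicates 1 to 5. Every testis library was far above every epididymis library, and replicates 2 and 4 were the highest. By CPM it ranked 3 to 9 among all rows of a testis library and 1363 to 3135 in an epididymis library. Its log2 fold change, testis over epididymis, was 5.95 ± 0.36 (SE, 5 libraries each, edgeR adjusted p = 8.13e-08). The Leydig cell list was highest in testis replicate 2, as SULT1C3 was. In replicate 4, where SULT1C3 was second highest, the list was lowest, at 14132 CPM, but close to the 14305 CPM of replicate 1. Its genes did not move together there. INSL3 was lowest in replicate 4, at 3212 CPM against 4486 to 6524. So were CYP11A1, at 1329 CPM against 1454 to 2666, and NR5A1, at 122 CPM against 130 to 196. STAR was the only 1 of the 8 genes that was highest there, at 1749 CPM against 672 to 1228. The part of Leydig cell content in the level of SULT1C3 was not tested.

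SULT2A1 and SULT2B1 both sulfate hydroxysteroids. SULT2A1 is the classical enzyme for dehydroepiandrosterone, and SULT2B1 is known for cholesterol and pregnenolone. Their genes lie near each other on chromosome 6 of the build Sscrofa11.1, SULT2A1 at 53525496 to 53536723 and SULT2B1 at 53928248 to 53963443, and they went in opposite directions. SULT2A1 had 211, 183, 191, 217 and 321 CPM in testis, against 0.153, 0.164, 6.97, 3.17 and 0.0979 CPM in epididymis. The testis libraries were alike, whereas epididymis replicates 3 and 4 stood above the other epididymis libraries, which were near the floor. SULT2B1 had 0.615, 1.13, 0.555, 0.427 and 0.657 CPM in testis, against 112, 134, 3.74, 43.6 and 146 CPM in epididymis. Here epididymis replicates 3 and 4 were the lowest of their tissue, and all 5 were above every testis library.

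The log2 fold change of SULT2A1 was 6.78 ± 1.04 (SE, higher in 5 of 5 boars, edgeR adjusted p = 9.37e-05). It was 8.03 without epididymis replicate 3 and 10.56 without replicates 3 and 4 of that tissue. SULT2B1 stood at -6.99 ± 0.89 (SE, lower in testis in 5 of 5 boars, edgeR adjusted p = 2.10e-05). Per length, in TPM (reads per base of gene, scaled to 1000000 in all per library), the level of SULT2A1 was 108 to 336 times that of SULT2B1 within each testis library. Within epididymis libraries the same ratio spanned 0.000445 to 1.24, the highest in replicate 3.

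SULT1E1, which sulfates estrogens at low concentrations (chromosome 8, 66811536 to 66838181), was nearly silent in testis. It had 0.0512, 0.0662, 0.139, 0.1603 and 0.205 CPM there, against 8.50, 4.05, 61.4, 22.2 and 3.92 CPM in epididymis. The groups did not overlap, and epididymis replicates 3 and 4 were the highest, the reverse of their place for SULT2B1. Its log2 fold change was -7.21 ± 0.95 (SE, edgeR adjusted p = 2.56e-05), or -6.19 without epididymis replicate 3. CYP19A1, the aromatase that makes estrogens and is in the Leydig cell list, had 1185 to 2179 CPM in testis and 0.814 to 2.37 CPM in epididymis.

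SULT1A3 is the name in the files for the pig phenol sulfotransferase row, which RefSeq also lists as SULT1A1 (chromosome 3, 18351205 to 18354653). This family sulfates phenols, catecholamines and estrogens. It had 10.3, 11.9, 16.4, 11.2 and 12.1 CPM in testis, against 37.8, 65.2, 60.9, 51.7 and 22.5 CPM in epididymis. The groups did not overlap, although epididymis replicate 5 was not far above testis replicate 3. Testis over epididymis, its log2 fold change was -1.91 ± 0.28 (SE, lower in testis in 5 of 5 boars, edgeR adjusted p = 6.91e-05).

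SULT1C4, a relative of SULT1C3, and SULT4A1, an enzyme known mainly from brain (chromosome 5, 5131272 to 5156898), were present in testis at moderate levels and near the floor in epididymis. SULT1C4 had 26.5, 20.3, 24.8, 45.8 and 22.6 CPM in testis, against 0.102, 0.110, 0.410, 0.167 and 0 CPM in epididymis. SULT4A1 had 28.8, 24.6, 24.4, 35.1 and 24.4 CPM in testis, against 0, 0.110, 0.137, 0.0556 and 0.0979 CPM in epididymis. Testis replicate 4 was the highest for both. Their log2 fold changes were 7.41 ± 0.56 for SULT1C4 and 8.32 ± 0.42 for SULT4A1 (SE, each higher in 5 of 5 boars, edgeR adjusted p = 3.50e-07 and 2.42e-08). Without epididymis replicate 3 the log2 fold change of SULT1C4 was 8.15.

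The remaining sulfotransferase rows and the only glucuronosyltransferase row held few reads. SULT1C2, another 1C member, had 44 reads in testis and 2 in epididymis, a ratio of 18.9 after division by the library totals with a 95% counting interval of 4.93 to 161. It was not tested with the filter on low counts. SULT1B1, which sulfates phenols and thyroid hormone, had 3 reads in testis and 8 in epididymis, a ratio of epididymis over testis of 3.11 (0.745 to 18.2), an interval that includes no difference. SULT6B1 had 3 reads in testis and 0 in epididymis, and UGT2B31, a glucuronosyltransferase, had 1 read in testis and 0 in epididymis, all at or under the floor. Other glucuronosyltransferases were not analysed here, so the glucuronide arm of the set is represented by a row without measurable signal.

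Within the SULT rows the tissues had different leading genes. Summed over the 9 rows, the level was 2489 to 4838 TPM in testis and 171 to 399 TPM in epididymis. SULT1C3 made up 79.8 to 92.9% of the testis sum and SULT2A1 5.25 to 16.8%. In epididymis SULT2B1 held 66.7, 63.4, 4.10, 35.2 and 73.1% in replicates 1 to 5, and SULT1A3 held 21.6, 29.7, 64.2, 40.0 and 10.8%. SULT1A3 was thus the leading SULT row of epididymis replicates 3 and 4, and SULT2B1 of the other epididymis libraries. These shares depend on the gene lengths in the files, 5133 bases for SULT1C3 and 1155 bases for SULT2B1.

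**Figure D2:**
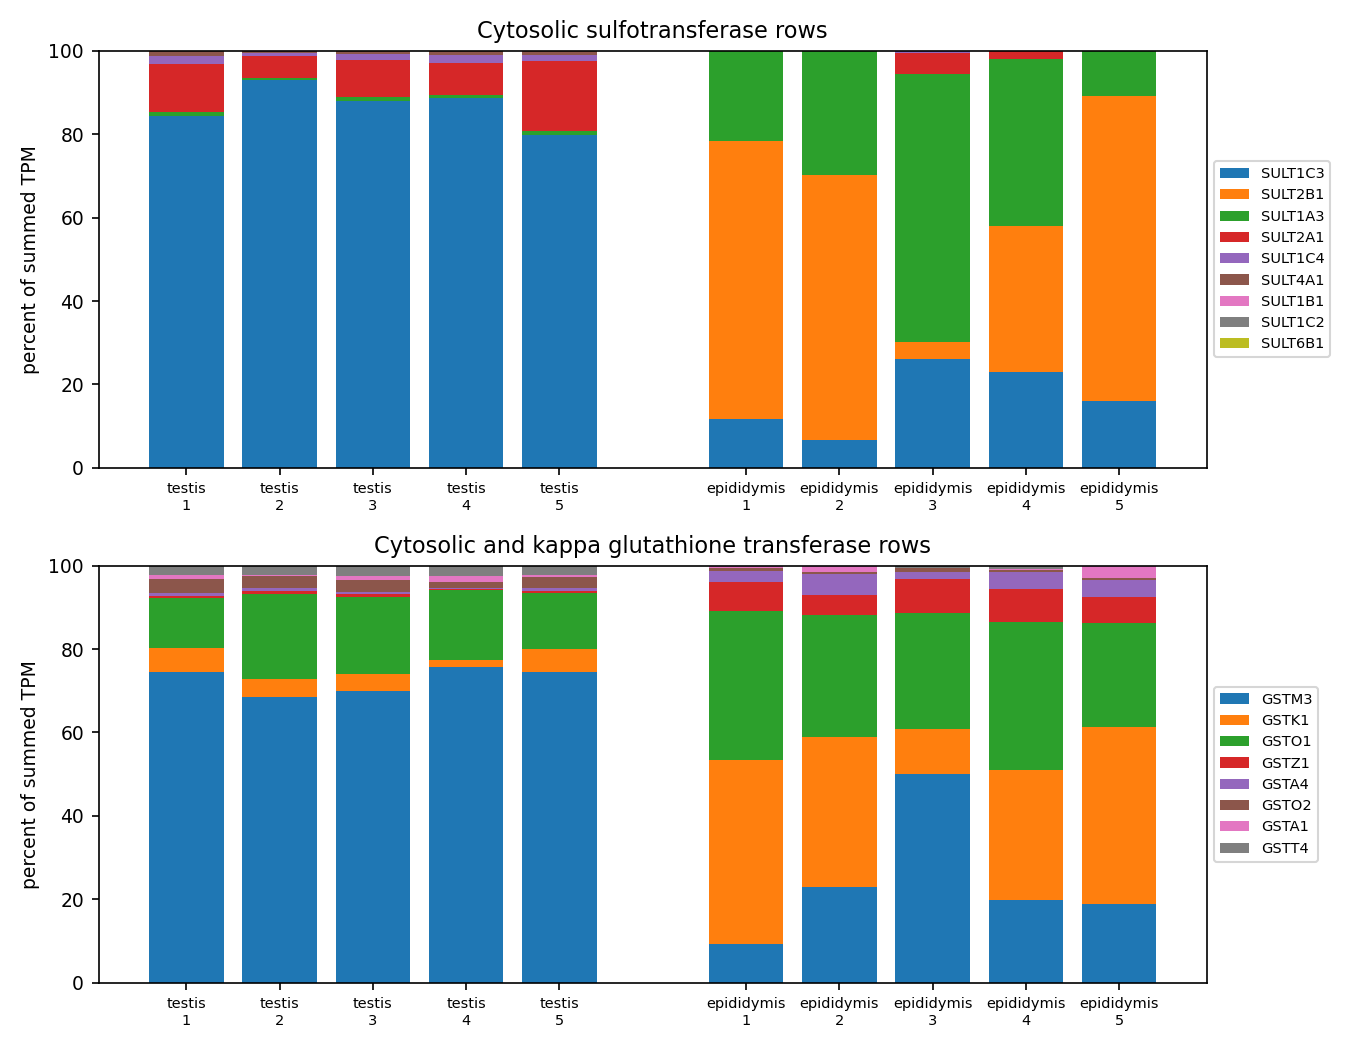
Share of each row in the summed TPM of the SULT rows (top) and the GST rows (bottom), in percent, per library, testis on the left and epididymis on the right. SULT1C3 holds 79.8 to 92.9% of the SULT sum in testis and 6.70 to 26.1% in epididymis, and GSTM3 holds 68.6 to 75.6% of the GST sum in testis and 9.21 to 50.1% in epididymis.

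GSTM3, a mu-class glutathione transferase known from germ cells and sperm (chromosome 4, 110330027 to 110332957), was the highest of the 8 GST rows in testis. It had 739, 649.9, 715, 1338 and 778 CPM in testis, against 11.5, 31.5, 65.4, 19.9 and 21.8 CPM in epididymis. Testis replicate 4 was well above the other testis libraries, and epididymis replicate 3 was the highest of its tissue. Its log2 fold change was 4.84 ± 0.46 (SE, higher in 5 of 5 boars, edgeR adjusted p = 2.27e-06). The spermatid list was likewise highest in testis replicate 4, at 20336 CPM against 15416 to 17240, and in epididymis replicate 3. All 10 of its genes were the highest of the tissue in epididymis replicate 3, and 8 were in testis replicate 4. There PRM1 (7532 CPM against 7614 to 8202) and OAZ3 (923 CPM against 2012 to 2365) were the lowest of the tissue. The part of spermatid content in the level of GSTM3 was not tested. Per length GSTM3 reached 1937 to 3830 TPM in testis, which placed it 19 to 38 among all rows, beside SULT1C3 at 14 to 35. In testis replicates 1, 4 and 5 GSTM3 was above SULT1C3 in TPM (2196, 3830 and 2344 against 2098, 3330 and 2133). In replicates 2 and 3 SULT1C3 was above GSTM3.

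The omega-class enzymes GSTO1 (chromosome 14, 115206434 to 115216624) and GSTO2 reduce dehydroascorbate and other substrates rather than conjugate them. GSTO1 had 163, 267, 261, 407 and 192 CPM in testis, against 61.5, 54.5, 49.9, 49.1 and 40.0 CPM in epididymis. GSTO2 had 263, 225, 246, 214 and 228 CPM in testis, against 6.01, 5.20, 8.16, 4.39 and 6.22 CPM in epididymis. Both were higher in every testis library, but by unequal amounts, with log2 fold changes of 2.35 ± 0.25 for GSTO1 and 5.31 ± 0.22 for GSTO2 (SE, edgeR adjusted p = 5.52e-06 and 9.61e-09). Among the testis libraries GSTO1 was highest and GSTO2 lowest in replicate 4. Per length the level of GSTO1 exceeded that of GSTO2 by 3.69 to 11.3 times in testis and 36.3 to 66.5 times in epididymis.

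The alpha-class enzymes differed from each other. GSTA1, which reduces lipid peroxides and, in mammals, belongs to the class whose members isomerize steroid double bonds (chromosome 7, 46538743 to 46550781), varied widely in both tissues. It had 138, 58.2, 145, 358 and 70.7 CPM in testis, against 9.06, 29.9, 0.228, 2.39 and 46.3 CPM in epididymis. The groups did not overlap, but the highest epididymis library, replicate 5, was close to the lowest testis library, and the epididymis libraries spanned 203-fold. The log2 fold change was 3.08 ± 1.02 (SE, edgeR adjusted p = 0.0163). Blocking by boar gave 4.04 (edgeR adjusted p = 0.0349). Without epididymis replicate 5 it was 3.84, and without epididymis replicates 3 and 4 it was 2.37 (edgeR adjusted p = 0.00867 and 0.00709). The counted length of GSTA1, 11544 bases, spans most of the gene, and reads of near-identical alpha-class copies may have been split or left out, so its level is uncertain.

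GSTA4, known for conjugating the lipid peroxidation product hydroxynonenal (chromosome 7, 46635903 to 46656491), was not called. It had 52.8, 46.6, 43.8, 41.4 and 52.9 CPM in testis, against 27.5, 56.6, 19.5, 34.5 and 39.0 CPM in epididymis. The testis libraries were close together, and epididymis replicate 2 lay above them all. The log2 fold change was 0.43 ± 0.27 (SE, higher in 4 of 5 boars, edgeR adjusted p = 0.164), but without epididymis replicate 2 it was 0.68 and called (edgeR adjusted p = 0.0184).

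GSTT4, a theta-class enzyme, had 24.9, 21.7, 26.7, 47.6 and 25.7 CPM in testis, against 0.204, 0.0548, 0.912, 0.890 and 0.0979 CPM in epididymis. As with SULT2A1, epididymis replicates 3 and 4 were the highest of a tissue that was otherwise near the floor, and testis replicate 4 was the highest of its own. GSTT4 had a log2 fold change of 6.10 ± 0.62 (SE, higher in 5 of 5 boars, edgeR adjusted p = 3.46e-06), or 7.81 without epididymis replicates 3 and 4.

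GSTZ1, the isomerase of tyrosine breakdown (chromosome 7, 100392217 to 100404025), was the only GST row higher in epididymis. It had 40.0, 45.4, 40.2, 23.4 and 40.4 CPM in testis, against 63.8, 49.8, 78.4, 58.1 and 52.2 CPM in epididymis. The gap between the groups was small, and testis replicate 4 was the lowest library. Its log2 fold change was -0.64 ± 0.21 (SE, lower in testis in 5 of 5 boars, edgeR adjusted p = 0.0163), which glmTreat did not call beyond 2-fold. GSTK1, the kappa-class enzyme of mitochondria and peroxisomes (chromosome 18, 6992623 to 6999068), had 167, 114, 115, 92.8 and 165 CPM in testis, against 159, 143, 40.7, 90.2 and 142 CPM in epididymis. The groups overlapped, with epididymis replicates 3 and 4 below every testis library. Its log2 fold change of 0.19 ± 0.35 (SE, edgeR adjusted p = 0.638) changed sign to -0.05 without epididymis replicate 3.

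Summed over the 8 GST rows, the level was 2825 to 5066 TPM in testis and 309 to 349 TPM in epididymis. The epididymis sums were close together, although their makeup was not. GSTM3 took 9.21, 23.0, 50.1, 19.8 and 18.8% of the sum in epididymis replicates 1 to 5, and GSTK1 took 44.2, 36.0, 10.8, 31.1 and 42.5%. GSTO1 held 12.0 to 20.5% in testis and 25.1 to 35.9% in epididymis.

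The MGST enzymes, membrane proteins of the endoplasmic reticulum and mitochondria, were present in both tissues at summed levels that overlapped, 168 to 383 TPM in testis and 103 to 341 TPM in epididymis. MGST1, which also reduces lipid peroxides (chromosome 5, 56259566 to 56283823), had 217, 208, 132, 425 and 265 CPM in testis, against 197, 93.9, 30.5, 65.3 and 281 CPM in epididymis. The groups overlapped, with epididymis replicate 5 above 4 of the testis libraries. Its log2 fold change was 0.88 ± 0.53 (SE, higher in 4 of 5 boars, edgeR adjusted p = 0.152), and it was called with the boar as a block (1.22, edgeR adjusted p = 0.0399) and without epididymis replicate 5 (1.34, edgeR adjusted p = 0.0333).

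MGST3, an enzyme with peroxidase and leukotriene C synthase activity (chromosome 4, 85069603 to 85095022), was modestly higher in epididymis. It had 27.3, 23.7, 23.3, 23.0 and 26.4 CPM in testis, against 41.0, 41.2, 30.7, 34.5 and 49.7 CPM in epididymis. The groups did not overlap, with a log2 fold change of -0.66 ± 0.19 (SE, lower in testis in 5 of 5 boars, edgeR adjusted p = 0.00674) that glmTreat did not call beyond 2-fold. MGST2, which also makes leukotriene C (chromosome 8, 87318180 to 87394563), stood at 6.56 to 10.8 CPM in testis and 4.06 to 18.6 CPM in epididymis. It was not called (log2 -0.24 ± 0.36, edgeR adjusted p = 0.557).

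**Figure D3:**
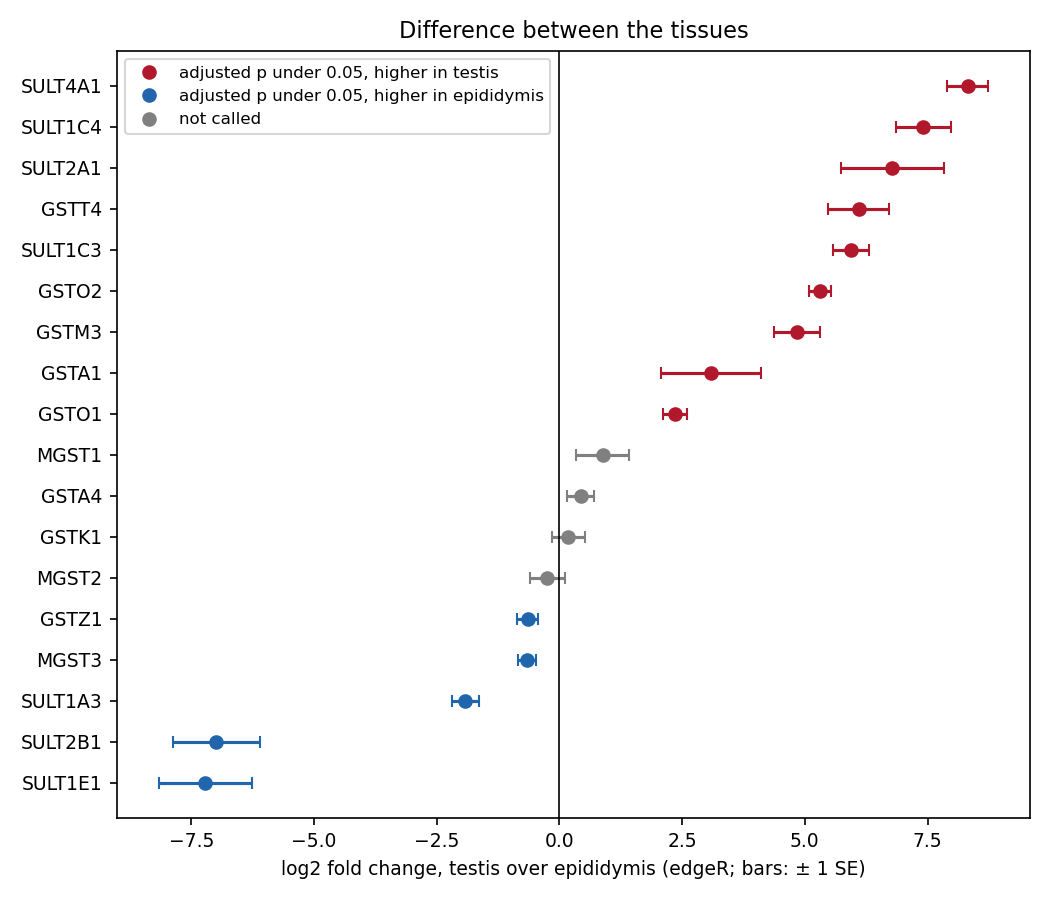
Log2 fold change, testis over epididymis, of the 17 tested conjugating enzymes and SULT1E1, with bars of 1 SE and colours for the call at an adjusted p under 0.05. The values run from 8.32 for SULT4A1 to -7.21 for SULT1E1, and the grey points MGST1, GSTA4, GSTK1 and MGST2 are not called.

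Since testis replicate 4 stood apart, it was also set alone against the epididymis libraries. In that comparison 8 of the 21 were called in favour of testis and 1 in favour of epididymis, against 23.4% and 11.4% of the 18896 genes tested. GSTA1 then had a log2 fold change of 4.41 (edgeR adjusted p = 0.0769), SULT2B1 -7.59 (0.0545), SULT1A3 -1.98 (0.0505) and MGST3 -0.68 (0.235), and none of these was called, nor was SULT1E1 at -6.76 (0.0716). GSTZ1 was called, at -1.26 (edgeR adjusted p = 0.0367). The spread then comes from the epididymis libraries alone. Leaving out any single library of the 10 ended none of the 13 calls of members.

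Several of the enzymes varied widely among the epididymis libraries. Epididymis replicate 3 was the highest of its tissue for 8 of the 17 tested members and the lowest for 6. It had the most SULT2A1, SULT1C4, GSTM3, GSTO2, GSTT4, GSTZ1, MGST2 and SULT4A1, and the least SULT2B1, GSTA1, GSTA4, GSTK1, MGST1 and MGST3. For SULT4A1 the order is within counting error, at 0.137 CPM, the floor, against at most 0.110 CPM in the other epididymis libraries. Replicate 4 ranked next to replicate 3 in 9 of these 14, the exceptions being GSTO2, GSTM3, GSTZ1, SULT4A1 and GSTA4. For GSTO2 replicate 4 was the lowest library, at 4.39 CPM, where replicate 3 was the highest, at 8.16 CPM. Epididymis replicates 1, 2 and 5 had 112 to 146 CPM of SULT2B1 and 3.92 to 8.50 CPM of SULT1E1, whereas replicates 3 and 4 had 3.74 and 43.6 CPM of SULT2B1 and 61.4 and 22.2 CPM of SULT1E1. This grouping was noticed in the values and was not tested.

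Marker genes also differed between these libraries. The smooth muscle list of 5 genes, all detected, stood at 228 to 382 CPM in testis, and at 10629, 15065, 6447, 5378 and 10209 CPM in epididymis replicates 1 to 5. The adipocyte list of 4 genes, all detected, stood at 57.8 to 66.7 CPM in testis, and at 1.99, 1.48, 55.1, 14.8 and 0.588 CPM in epididymis. Most of the testis sum was LEP, at 42.6 to 54.0 CPM, against 1.19 CPM in epididymis replicate 3. FABP4 had at most 0.107 CPM in testis and 13.4 CPM in epididymis replicate 3, so the sums of the 2 tissues are not alike in makeup. In the epididymal list the beta-defensin DEFB128 had at most 0.0463 CPM in testis and 125, 96.3, 11667, 496 and 30.8 CPM in epididymis, and PTI, a protease inhibitor, had 0.205 to 0.855 CPM in testis and 5672, 4588, 14.1, 2947 and 4264 CPM in epididymis. The Leydig cell list was nearly flat across the epididymis, at 28.3, 31.9, 34.6, 35.5 and 28.2 CPM. The part of tissue makeup in the SULT and GST differences between epididymis libraries was not tested.

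**Figure D4:**
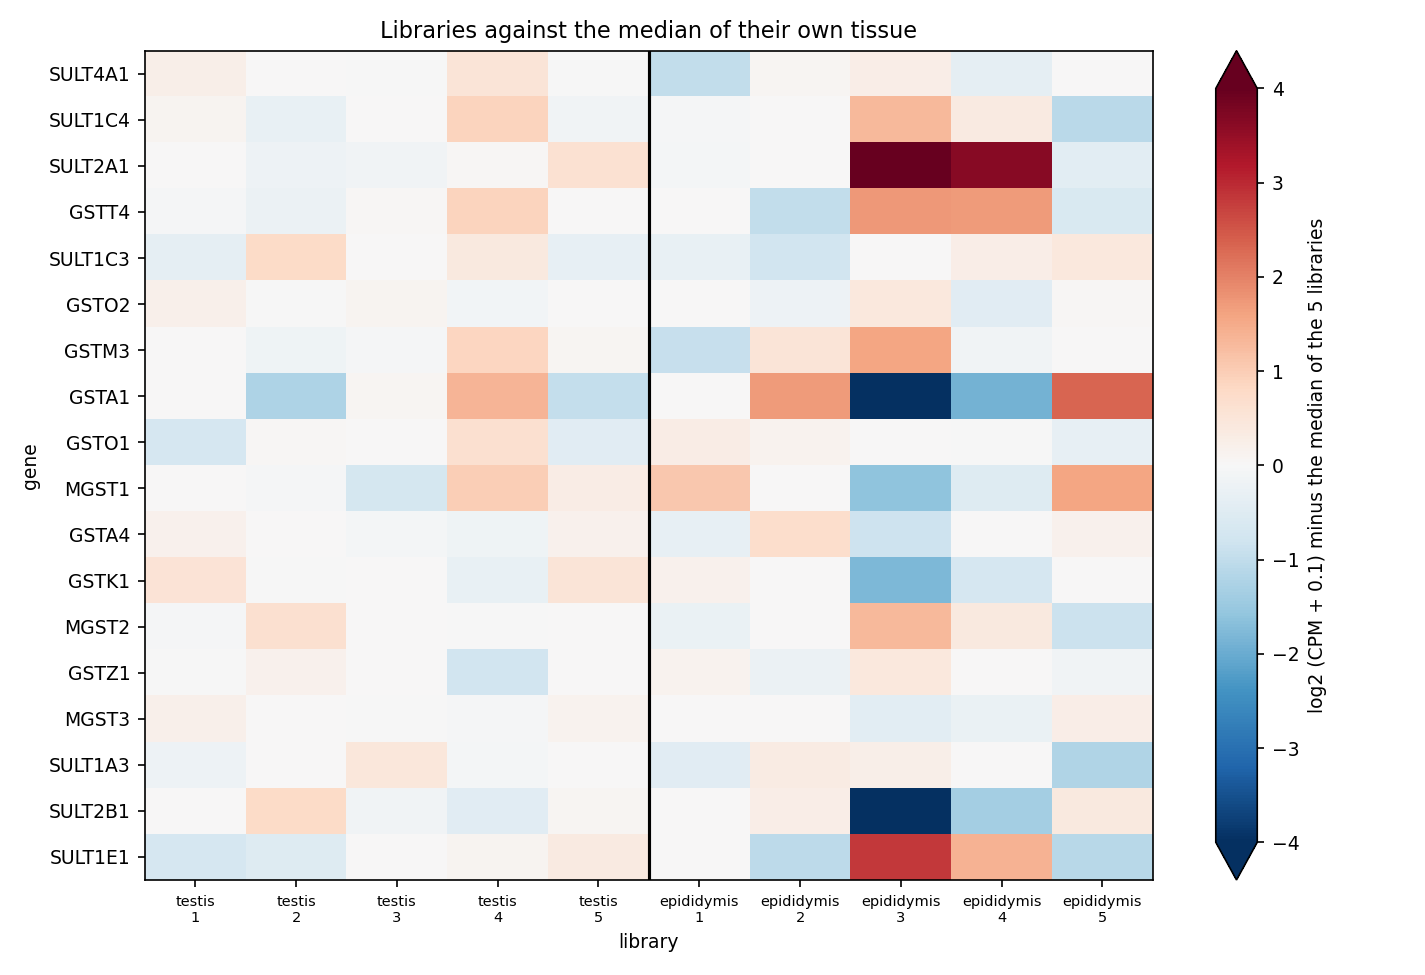
Log2 of CPM + 0.1 of each tested conjugating enzyme and SULT1E1 in each library, minus the median of the 5 libraries of its own tissue, with red above and blue below that median. Testis replicate 4 is the highest testis library for 7 of the 17 members, and epididymis replicate 3 is the highest of its tissue for 8 and the lowest for 6. Of those 8, SULT4A1 is at the floor in epididymis.

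In testis, replicate 4 was the highest for 7 of the 17 tested members and the lowest for 6. It was above the other testis libraries for GSTM3, GSTO1, GSTA1, GSTT4, MGST1, SULT1C4 and SULT4A1, and below them for SULT2B1, GSTO2, GSTA4, GSTK1, GSTZ1 and MGST3. Among the tested members MGST3 and GSTO2 varied least between testis libraries, with coefficients of variation of 7.90 and 8.18%, and GSTA1 varied most, at 78.3%.

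The supply of cofactors was followed with lists of pathway genes, for which calls and medians are given as a description. Over all 17225 genes tested, 36.6% were called for testis and 37.8% for epididymis, and the median log2 fold change was -0.07. The counts below are to be read beside these shares. With the testis represented by replicate 4 alone, 23 of the pathway genes named here were no longer called. They were NDST2 and GCLM, which also changed sign, and BPNT1, PAPSS1, SLCO3A1, SUMF1, UGDH, SLC3A2, SLC1A1, GSR, ANPEP, CNDP2, LAP3, ABCC1, ABCG2, ETHE1, TPST2, ARSA, SGSH, SULF2, NFE2L1, MAFK and GCLC. Of 9 symbols listed for sulfate donor supply, 8 were in the files and 7 were tested. BPNT2 and IMPAD1 in that list are symbols of the same gene. Of the 7, 3 were higher in testis and 3 in epididymis, with a median of 0.38. The synthases of PAPS went in opposite directions. PAPSS2 had 201 ± 32.0 TPM in testis and 5.15 ± 4.75 TPM in epididymis (SD, n = 5 each), and PAPSS1 had 9.14 ± 1.42 TPM in testis and 18.1 ± 8.63 TPM in epididymis. The sulfate transporter SLC26A2 had 349 ± 155 TPM in testis and 23.7 ± 15.5 TPM in epididymis. BPNT1, which clears the spent donor, had 15.1 ± 2.13 TPM in testis and 29.8 ± 8.81 TPM in epididymis. Its relative IMPAD1, given beside it, went the other way, with 44.3 TPM in testis and 21.6 TPM in epididymis (log2 0.94, edgeR adjusted p = 0.000934). The other log2 fold changes were 5.21 ± 0.51 for PAPSS2, -1.06 ± 0.27 for PAPSS1, 3.87 ± 0.59 for SLC26A2 and -1.05 ± 0.20 for BPNT1 (SE, edgeR adjusted p = 2.75e-06, 0.0037, 8.37e-05 and 0.000506). PAPSS2 was at 5.95 without epididymis replicate 3, which held 13.6 TPM against 2.55 to 4.14 in the others.

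Of 7 genes of steroid sulfate uptake and sulfatase activation, 5 were tested, of which 1 was higher in testis and 3 in epididymis, with a median of -1.30. SUMF1, which activates sulfatases, had 43.2 ± 6.61 TPM in testis and 161 ± 57.2 TPM in epididymis (log2 -1.96 ± 0.25, edgeR adjusted p = 1.96e-05). The organic anion transporter SLCO4A1 had 1.65 ± 0.206 TPM in testis and 53.1 ± 10.1 TPM in epididymis (log2 -5.09 ± 0.21, edgeR adjusted p = 9.61e-09). Its relative SLCO3A1 went the other way, with 15.9 ± 2.26 TPM in testis and 5.13 ± 3.41 TPM in epididymis (log2 1.56 ± 0.37, edgeR adjusted p = 0.00233). Of 13 other sulfatases tested, of 15 listed, 1 was higher in testis and 4 in epididymis (median -0.16). ARSA, the lysosomal arylsulfatase A, was the 1 in testis with 218 ± 37.5 TPM, against 77.6 ± 18.0 TPM in epididymis. The heparan sulfatase SGSH had 20.3 ± 2.75 TPM in testis and 35.6 ± 11.5 TPM in epididymis, and SULF2, a sulfatase of the cell surface, had 5.12 ± 0.948 TPM in testis and 11.9 ± 5.78 TPM in epididymis (edgeR adjusted p = 0.000226, 0.00274 and 0.00167).

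Glutathione synthesis and supply was followed with 11 genes, of which 3 were called for testis and 6 for epididymis (median -0.77). With any 1 library left out the epididymis count was 4 to 5. The enzymes that build glutathione were named after their values were seen. GCLC, the catalytic subunit of the first step, had 6.65 ± 0.964 TPM in testis and 20.3 ± 8.11 TPM in epididymis, and GSS, the second step, had 9.73 ± 1.75 TPM in testis and 19.1 ± 2.41 TPM in epididymis (log2 -1.69 ± 0.27 and -1.06 ± 0.17, edgeR adjusted p = 0.000113 and 0.000122). GCLM, the modifier subunit, had 9.84 ± 5.04 TPM in testis and 15.9 ± 5.41 TPM in epididymis (log2 -0.77 ± 0.32, edgeR adjusted p = 0.0442), and omission of a library ended this call (0.0637 to 0.155) unless it was testis replicate 4 or epididymis replicate 3. GSR, which regenerates glutathione, had 21.9 ± 5.45 TPM in testis and 37.8 ± 12.9 TPM in epididymis (edgeR adjusted p = 0.00781). On the testis side, SLC25A39, a mitochondrial glutathione carrier, had 684 ± 35.8 TPM in testis and 196 ± 23.4 TPM in epididymis (edgeR adjusted p = 3.22e-06). SLC3A2, the heavy chain of the cystine transporter, had 441 ± 212 TPM in testis and 110.4 ± 31.2 TPM in epididymis (edgeR adjusted p = 0.000345). The light chain of that transporter, SLC7A11, is given beside it. It had 3.20 TPM in testis and 5.41 TPM in epididymis and was not called (edgeR adjusted p = 0.330). The glutamate and cysteine transporter SLC1A1 was called higher in epididymis (edgeR adjusted p = 0.0265) on 1 library. It had 541 TPM in epididymis replicate 3 and 0.195 to 0.432 TPM in the other epididymis libraries, against 1.44 to 2.29 TPM in testis, and without that library its log2 fold change was 2.53, not -5.86.

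Downstream of conjugation, 15 genes of glutathione breakdown and mercapturate steps were tested, of 19 symbols listed. CCBL1 and KYAT1 in that list are symbols of the same gene. Of the 15, 4 were higher in testis and 6 in epididymis (median -0.67). OPLAH, the oxoprolinase, had 182 ± 14.0 TPM in testis and 44.8 ± 20.3 TPM in epididymis, and the aminopeptidase ANPEP had 68.1 ± 23.4 TPM in testis and 15.2 ± 9.04 TPM in epididymis. The dipeptidase CNDP2 had 150.2 ± 21.7 TPM in testis and 337 ± 135 TPM in epididymis, and the aminopeptidase LAP3 had 45.5 ± 10.8 TPM in testis and 134 ± 48.4 TPM in epididymis. Their edgeR adjusted p-values were 0.000342, 0.000433, 0.000767 and 7.01e-05. Of 7 efflux pumps tested, of 9 listed, 2 were higher in testis and 2 in epididymis (median -0.12). ABCC1, a pump of glutathione conjugates, had 145 ± 35.0 TPM in testis and 30.9 ± 23.5 TPM in epididymis, and ABCG2, known for steroid sulfates, had 7.22 ± 1.92 TPM in testis and 2.08 ± 0.754 TPM in epididymis (edgeR adjusted p = 0.000178 and 0.000547). ABCC10 had 10.6 ± 1.36 TPM in testis and 45.5 ± 15.2 TPM in epididymis, and ABCC5 had 4.27 ± 0.469 TPM in testis and 14.1 ± 4.64 TPM in epididymis (edgeR adjusted p = 1.81e-05 and 3.77e-05).

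**Figure D5:**
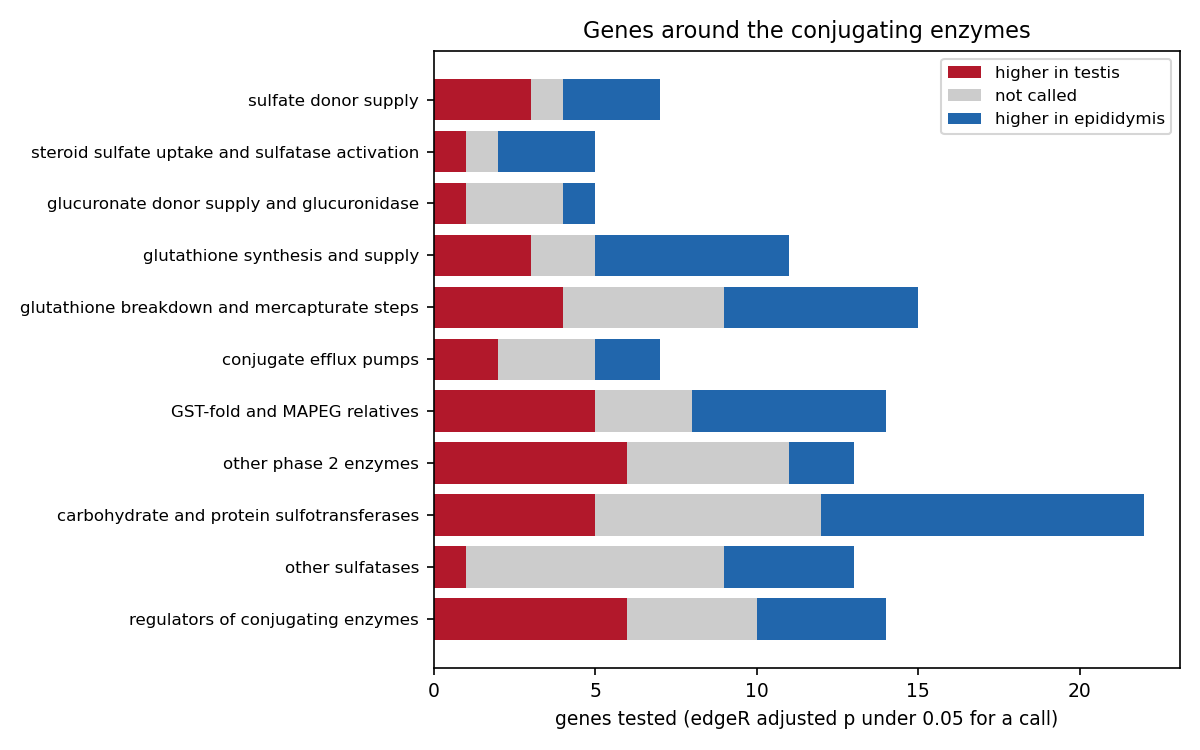
Number of tested genes of each pathway list called higher in testis, not called, or called higher in epididymis (edgeR adjusted p under 0.05). Glutathione synthesis and supply has 3 and 6 of 11, and the other phase 2 enzymes 6 and 2 of 13, for testis and epididymis. Over all genes tested the shares were 36.6% and 37.8%.

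For glucuronides, 5 genes of donor supply and the glucuronidase were tested, with 1 higher in each tissue (median -0.19). The epididymis count was 2 without testis replicate 4 or without epididymis replicate 2, and 0 with testis replicate 4 alone. GUSB, the beta-glucuronidase that removes glucuronate, had 150.5 ± 50.1 TPM in testis and 27.5 ± 5.09 TPM in epididymis, while UGDH, which makes UDP-glucuronate, had 7.20 ± 1.94 TPM in testis and 28.4 ± 17.9 TPM in epididymis (edgeR adjusted p = 6.29e-06 and 0.000344). Among 13 other phase 2 enzymes tested, of 18 listed, 6 were higher in testis and 2 in epididymis (median 0.35). EPHX1, the microsomal epoxide hydrolase, had 1125 ± 273 TPM in testis and 219 ± 80.5 TPM in epididymis, and the quinone reductase NQO1 had 115 ± 38.5 TPM in testis and 12.9 ± 3.06 TPM in epididymis (edgeR adjusted p = 3.26e-05 and 1.04e-06). The methyltransferase INMT had 2.89 ± 1.54 TPM in testis and 10.2 ± 2.86 TPM in epididymis (edgeR adjusted p = 0.00223). GLYATL2, a glycine acyltransferase, had 3 reads in testis, all in replicate 2, and 2055 in epididymis, a ratio of epididymis over testis of 798 with a 95% counting interval of 273 to 3871.

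Relatives of the conjugating enzymes and their regulators were mixed. A list of 19, with 14 tested, was drawn up for the GST fold and the MGST superfamily. Calls fell to testis for 5 and to epididymis for 6 (median -0.15). The list also took in ETHE1 and GLO1, which are not of that fold or superfamily. ETHE1 is among the 6, and GLO1 was not called (edgeR adjusted p = 0.372). ALOX5AP, a leukotriene synthesis protein, had 197 ± 14.4 TPM in testis and 16.6 ± 4.18 TPM in epididymis, and the channel-like CLIC5 had 157 ± 25.4 TPM in testis and 4.34 ± 2.11 TPM in epididymis, whereas CLIC4 had 10.2 ± 2.21 TPM in testis and 51.2 ± 20.2 TPM in epididymis and ETHE1, a sulfide-oxidizing enzyme, 19.9 ± 3.45 TPM in testis and 31.6 ± 2.20 TPM in epididymis (edgeR adjusted p = 4.75e-08, 8.21e-08, 1.52e-06 and 0.00391). Of 22 carbohydrate and protein sulfotransferases tested, of 27 listed, 5 were higher in testis and 10 in epididymis (median -0.45). The testis count was 3 without testis replicate 2 or 5, with the boar as a block, and without composition factors. CHST8, which sulfates hormone glycans, had 56.8 ± 22.1 TPM in testis and 0.723 ± 0.694 TPM in epididymis, and NDST1, of heparan sulfate synthesis, had 31.3 ± 4.83 TPM in testis and 48.8 ± 4.49 TPM in epididymis (edgeR adjusted p = 1.58e-05 and 0.00159). NDST2 had 57.0 ± 16.2 TPM in testis and 36.1 ± 8.59 TPM in epididymis (edgeR adjusted p = 0.0489), and omission of a library ended this call (0.0546 to 0.109) unless it was testis replicate 4 or epididymis replicate 1. The tyrosylprotein sulfotransferase TPST2 had 31.4 ± 9.26 TPM in testis and 181 ± 252 TPM in epididymis with a log2 fold change of -2.60 ± 0.70 (SE, edgeR adjusted p = 0.00522). Of that, 631 TPM was the value of epididymis replicate 3, without which the fold change was -1.21 on the log2 scale (edgeR adjusted p = 0.0012).

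Of 14 regulators tested, of 16 listed, 6 were higher in testis and 4 in epididymis (median 0.27). NFE2L2, the stress-response factor NRF2 known to induce GST genes, had 20.1 ± 5.30 TPM in testis and 86.6 ± 12.2 TPM in epididymis, and its partner MAFK had 21.6 ± 6.83 TPM in testis and 51.3 ± 11.7 TPM in epididymis (edgeR adjusted p = 8.09e-07 and 0.000572). NFE2L1, a relative of NFE2L2, had 249 ± 50.0 TPM in testis and 150.3 ± 31.9 TPM in epididymis (edgeR adjusted p = 0.0111). NR5A1, the steroidogenic factor of Leydig and Sertoli cells, had 119.9 ± 26.7 TPM in testis and 0.135 ± 0.0895 TPM in epididymis (log2 9.62 ± 0.38, edgeR adjusted p = 9.61e-09).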

How the data were processed

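Raw read counts per gene were deposited by the authors as whole numbers, 1 file per library, with gene lengths per the file headers. Per the submitters' processing notes, cutadapt 3.0, STAR and featureCounts of Subread were used with the build Sscrofa11.1. Which annotation release and strand setting they used, and how multi-mapping reads were counted, is not given in the sources used here, so near-identical or overlapping genes are uncertain. Per the labels' protocols, poly(A) RNA was enriched and cDNA was amplified by PCR. The content of small structural RNAs and histone genes still differed between libraries, as given above. No molecular identifiers are mentioned, and floors and intervals therefore hold counting error alone. The 2 long-read samples were not analysed here.

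CPM was computed over the library total, and TPM from counts and lengths. Identifier rows were named through a gene name table (810 of 15226), and coordinates, for 15 of the 21 members and SULT1E1, come from RefSeq, build Sscrofa11.1. With R 4.3.3, edgeR 4.0.16 was run on the 17225 genes left by filterByExpr, with TMM factors and tissue as the only term. SE is the unshrunken log2 fold change over the square root of F. P-values were adjusted by the Benjamini-Hochberg method over all genes tested. On simulated counts the test was checked before use. No library pair was identical, and within a tissue the chi-square per degree of freedom was at least 9.53 (testis) and 72.5 (epididymis).

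Values in every library are given for members with a mean of at least 10 CPM in either tissue and for SULT1E1, SULT2A1 and SULT2B1. In each pathway list the 2 genes of highest TPM called in each direction are named. A pathway gene that had been listed is not reported here. The members and lists were chosen with earlier results of these data known.

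The header animal numbers pair the libraries by boar, although same-boar libraries deviated together only weakly (correlations of 0.00867 to 0.0893 across genes, 2 of 5 best with their own boar). The alternatives were DESeq2 1.42.0, its size factors, no composition factors, no filter, the boar as a block, single libraries left out, testis replicate 4 as the only testis library, epididymis replicates 3 and 4 left out, and histone and small RNA rows left out.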

Additional observations from a re-analysis of the deposited data

Results flagged for a closer look

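In 122 sets of 5 libraries (a gene in a tissue), 23 had a library far from the other 4, its gap to the nearest over the range being above Dixon's 0.71. Chance flags about 1 in 20 sets of independent, normally distributed values. These were unlogged CPM and TPM values, and the sets share the same libraries, so the 23 cannot be read against that rate. Testis replicate 4 accounted for 10 of the 23 flags and epididymis replicate 3 for 5. No cause was tested, and neither was the header age of 17 months of the boar of replicate 4.

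Among the conjugating enzymes, testis replicate 4 was high for GSTT4 (47.6 CPM, nearest 26.7), SULT1C4 (45.8, nearest 26.5), GSTM3 (1338, nearest 778) and GSTA1 (358, nearest 145), and low for GSTZ1 (23.4, nearest 40.0). SULT2A1 was high in testis replicate 5 (321 CPM, nearest 217), MGST2 in testis replicate 2 (10.8, nearest 6.86) and SULT1A3 in testis replicate 3 (16.4, nearest 12.1).

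Among the pathway genes, testis replicate 4 was high for OPLAH (207 TPM), TPST2 (47.8) and GCLM (18.7), and low for ABCC10 (8.26) and NDST2 (28.2). CHST8 was high in testis replicate 5 (95.4 TPM), and GLYATL2 in testis replicate 2 (0.0771), the only testis library with reads of it. Epididymis replicate 3 was high for PAPSS2 (13.6 TPM), SLC1A1 (541), TPST2 (631), SULF2 (21.8) and NR5A1 (0.293). ABCC1 (71.6 TPM) and CLIC4 (86.3) were high in epididymis replicate 4, and GUSB (36.3) in epididymis replicate 5.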

How the results depend on the processing

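All sign changes are of log2 fold changes, testis over epididymis. Of 324 values of the members and SULT1E1 under 18 alternatives, 311 kept their direction and side of the threshold. With testis replicate 4 alone, 1 member was called higher in epididymis, against 4, and over all genes 2145, against 6506, or 1062, against 4033, beyond 2-fold. Uncalled values changed sign for MGST2 (0.14 without epididymis replicate 3, 0.31 without replicates 3 and 4 of that tissue) and GSTK1 (-0.05 and -0.23, and -0.23 with testis replicate 4 alone). Over single libraries left out, MGST2 spanned -0.45 to 0.14, GSTK1 -0.05 to 0.35 and SLC1A1 -6.21 to 2.53. Among pathway genes, 5 of 772 values changed sign. SLC1A1 was 1.47 with the boar as a block, 2.53 without epididymis replicate 3 and 2.45 without replicates 3 and 4, and with testis replicate 4 alone GCLM was 0.28 and NDST2 -0.31. With the boar as a block the members' counts were 10 for testis and 4 for epididymis. Beside MGST1, NDST2 (edgeR adjusted p = 0.113) and SLC1A1, it changed no other call of a member or of a pathway gene named as called. Without 1 library the members' counts were 9 to 10 and 4 to 4. Without the filter SULT1C2 was called too (log2 3.92, edgeR adjusted p = 0.00147). The GCLM call was lost with DESeq2 (adjusted p = 0.0804), its size factors (0.0893), no filter (0.0557) and without histone and small RNA rows (0.064). SLC1A1 was also lost without any single testis library (0.0547 to 0.0602) and without the filter (0.0778), and NDST2 without composition factors (0.0551), without the filter (0.0523) and without epididymis replicates 3 and 4 (0.119). With testis replicate 4 alone, 23 named pathway genes, GCLM and NDST2 among them, lost their call. SULT2A1 was at 7.998 with the boar as a block, against 6.78. DESeq2's size factors moved the median log2 fold change of all genes to 0.05, against -0.07 with TMM. Depth limits the rows near the floor, above all SULT1B1, SULT6B1 and UGT2B31.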
